A study of Mus musculus with 21 samples.

Results

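The histidine tRNA with anticodon GTG (HisGTG) was followed in mouse back skin at 3 levels, as genes occupied by RNA polymerase III (Pol III), as tRNA reads and as cytosines in bisulphite-converted RNA. Members were all tRNA genes whose name ends in HisGTG, which gave 11 of 3283 predicted genes in the Pol III ChIP-seq counts and 7 of 1143 genes in the tRNA-seq counts, and every listed cytosine of their loci. In the tRNA-seq data 3544 distinct reads were listed at these genes. The 21 samples comprised 4 WT and 4 NSun2-/- libraries for tRNA-seq, 4 and 4 for RNA bisulphite sequencing, 2 WT and 1 NSun2-/- Pol III ChIP libraries and 1 input library of each genotype. All came from total back skin of male mice at postnatal day 25, when hair follicles enter the growth phase (anagen), on a mixed C57Bl6/J and CBA background. NSun2-/- mice carry a gene trap (clone D014D11), a cassette inserted in an intron of Nsun2 in every cell, and WT mice came from the same breedings. Each ChIP sample pooled tissue of 3 mice. Whole skin holds many cell types, so that fewer cells of a type and less RNA per cell cannot be told apart in any of the levels below.

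HisGTG tRNA is unusual because it carries an extra nucleotide in front of its first encoded base. This nucleotide, called −1, is a guanosine that in animals is added after transcription by the enzyme THG1L, and histidyl-tRNA synthetase (HARS) recognises it when it charges the tRNA with histidine. NSun2 is a methyltransferase that forms 5-methylcytidine (m5C) in RNA, in tRNAs chiefly at the junction of the variable loop and the TΨC arm (positions 48 and 49). Endonucleases such as angiogenin can cut tRNAs in the anticodon loop, which leaves a 5′ fragment that begins with −1 and a 3′ fragment that ends in CCA, the trinucleotide added to all mature tRNAs.

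Of the 11 genes, 10 could be placed on the mouse genome (mm9), and chr17.trna11-HisGTG was named only. Of these, 8 were identical over their 72 nt. The shared gene sequence and the most divergent gene are shown, read on the coding strand with the anticodon in capitals, because they set which reads can be told apart.
Shared by 8 genes: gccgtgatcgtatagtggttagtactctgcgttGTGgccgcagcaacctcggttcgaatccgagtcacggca
chr3.trna749-HisGTG: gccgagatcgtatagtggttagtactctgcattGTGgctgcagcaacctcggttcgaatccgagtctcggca
Counted from the first encoded base, chr3.trna749-HisGTG differed from the shared sequence by the substitutions T5A, G31A, C39T and A67T, and chr3.trna293-HisGTG only by T16G. The genome held a C at −1 in 9 genes, a T in chr3.trna749-HisGTG and a G in 0 genes, so that a G at −1 in a read was not encoded by any placed HisGTG gene.

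A group of 3 genes lay on chromosome 2, namely chr2.trna1431-HisGTG (chr2:122203099-122203170, minus strand), chr2.trna1432-HisGTG (chr2:122201230-122201301, minus strand) and chr2.trna586-HisGTG (chr2:122203704-122203775, plus strand). On chromosome 3 lay chr3.trna291-HisGTG (chr3:96213992-96214063), chr3.trna293-HisGTG (chr3:96239895-96239966) and chr3.trna295-HisGTG (chr3:96256418-96256489) on the plus strand. The same chromosome held chr3.trna747-HisGTG (chr3:96304289-96304360), chr3.trna749-HisGTG (chr3:96267895-96267966) and chr3.trna751-HisGTG (chr3:96261993-96262064) on the minus strand. The last gene, chr4.trna1697-HisGTG (chr4:82265527-82265598, minus strand), lay inside Nfib without touching an exon, and chr3.trna293-HisGTG lay inside BC107364 without touching an exon. No other placed HisGTG gene overlapped an annotated gene.

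The most abundant HisGTG 5′ fragments of both starts ended in the anticodon stem or loop. Those from −1 are shown with −1 in capitals, followed by those from +1, because the comparison of both starts rests on them.
G at −1, end 33: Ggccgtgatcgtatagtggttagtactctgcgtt
G at −1, end 31: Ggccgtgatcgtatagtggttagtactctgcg
G at −1, end 30: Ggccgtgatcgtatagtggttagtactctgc
T at −1, end 33: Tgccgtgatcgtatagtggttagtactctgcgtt
T at −1, end 31: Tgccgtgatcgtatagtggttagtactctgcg
Start +1, end 33: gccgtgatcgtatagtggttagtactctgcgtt
Start +1, end 30: gccgtgatcgtatagtggttagtactctgc
Start +1, end 31: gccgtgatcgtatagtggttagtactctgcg
Start +1, end 29: gccgtgatcgtatagtggttagtactctg
Start +1, end 27: gccgtgatcgtatagtggttagtactc

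The tRNA-seq libraries held between 17352126 and 36749727 counts, and levels below are counts scaled to the library's total (CPM). Reads were listed at 1 or more of the identical genes, unevenly, and their counts were added over the genes. Of the counts of 5′ fragments, 97.3% from −1 and 99.3% from +1 were multiples of 8. Nearly all counts of both starts thus shared a factor, whereas CCA-ending reads carried other factors and their levels cannot be set against those of 5′ fragments. With the common factor of each read removed, HisGTG 5′ fragments numbered 32851 to 60480 in WT and 70864 to 178985 in NSun2-/- libraries. Whether the added counts hold a read more than 1 time was not tested, so that CPM and shares of all counts need not be true levels. In the bisulphite data, which also list cytosines of mRNAs, Nsun2 itself had 31, 23, 48 and 43 listed cytosines in the WT libraries and 0 in each NSun2-/- library. Markers of keratinocytes (Krt5, Krt14, Krt1 and Krt10) and of dermal fibroblasts (Col1a1, Col1a2 and Col3a1) were listed in all 8 bisulphite libraries. Of the markers of other cells, those of skeletal muscle (Acta1, Ckm and Myh4) and fat (Adipoq and Fabp4) were also listed in all 8, those of melanocytes (Pmel and Dct) and blood (Hbb-b1) in some, and Hba-a1 in 0. NSun2-/- bisulphite replicate 3 stood apart from the rest in its HisGTG cytosines, as described with them.

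HisGTG 5′ fragments were about 2-fold more abundant in NSun2-/- than in WT skin, whether or not they carried the −1 nucleotide. A 5′ fragment here is a read of 25 to 40 nt that begins at −1 or +1. Fragments from −1 stood at 20448, 15191, 16923 and 20059 CPM in the WT libraries and at 35251, 34218, 48469 and 33545 CPM in the NSun2-/- libraries. Every NSun2-/- library lay above every WT library, and the means were 18155 ± 2529 and 37871 ± 7100 CPM (SD, n = 4). In edgeR's quasi-likelihood test over all isoacceptor families and both starts, fragments from −1 rose by a log2 fold change of 1.03 (SE 0.19, Benjamini-Hochberg adjusted p = 0.00389). The same test called 10 of 51 features higher (19.6%) and 6 lower (11.8%), and HisGTG from −1 had the smallest p of the 51.

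Fragments from +1, which lack the added nucleotide, were fewer and moved alike. They stood at 2407, 2217, 2036 and 2804 CPM in WT and at 4349, 4903, 5613 and 3287 CPM in NSun2-/- skin, again with no overlap. The log2 fold change in the same edgeR fit was 0.91 (SE 0.23, adjusted p = 0.0152). Together both starts made up 2.29%, 1.74%, 1.90% and 2.29% of all tRNA-seq counts in WT and 3.96%, 3.91%, 5.41% and 3.68% in NSun2-/- skin (p = 0.0286 by exact permutation, two-sided, which is the lowest value that 4 against 4 libraries can reach). The difference in this share was 2.19 percentage points, and 0.537 when the common factor was removed from the counts of each read, where the genotypes again did not overlap (exact permutation p = 0.0286). The 5′ fragments of all families summed also took a larger share of the counts, 73.1% to 84.0% in WT and 84.2% to 93.6% in NSun2-/- skin. Within these, the HisGTG share was 2.61% ± 0.352 (WT) and 4.89% ± 0.966 (NSun2-/-; SD, n = 4), with no overlap (exact permutation p = 0.0286). Of the 11 tested families of Asp, Glu, Gly, Lys and Val tRNAs, all from +1, 2 were called higher and 1 lower in that edgeR fit.

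**Figure D1:**
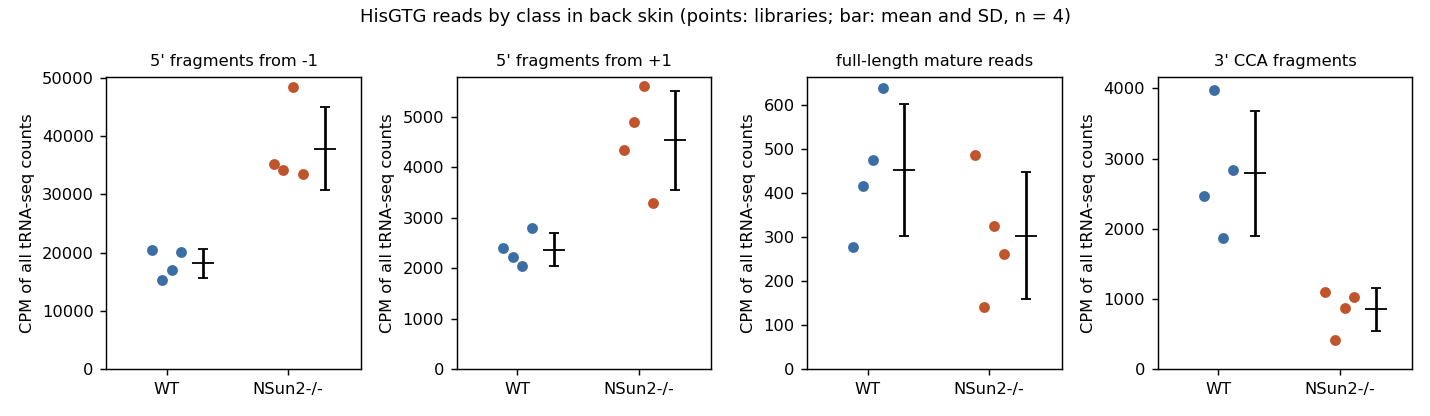
HisGTG reads by class, in CPM of all tRNA-seq counts on the y axis, for the 4 WT and the 4 NSun2-/- libraries (points), with the mean and SD beside them. Fragments from −1 lay between 15191 and 20448 CPM in WT and between 33545 and 48469 CPM in NSun2-/- skin, full-length mature reads overlapped between genotypes, and 3′ CCA fragments lay lower in all NSun2-/- libraries.

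Single reads varied more between libraries than their sum. The fragment with G at −1 that ended at 33, the most abundant HisGTG 5′ fragment, stood at 2941, 7682, 7189 and 7019 CPM in WT and at 13683, 7042, 16892 and 14629 CPM in NSun2-/- skin. NSun2-/- replicate 2 lay within the WT range, and the log2 fold change of 1.39 (SE 0.39) did not pass edgeR's test over read sequences (adjusted p = 0.127). The fragment with G at −1 ending at 30 ranged from 1122 to 6780 CPM in WT and from 4450 to 12064 CPM in NSun2-/- skin (edgeR, log2 fold change 1.87, SE 0.66, adjusted p = 0.225). Among fragments from +1, the read ending at 33 ranged from 674 to 1463 CPM in WT and from 1641 to 3133 CPM in NSun2-/- skin, without overlap (edgeR adjusted p = 0.0954). The other 7 fragments shown had log2 fold changes between 1.12 and 1.98, and none of them passed that test.

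The −1 nucleotide was present on nearly 9 in every 10 HisGTG 5′ fragments, and its share did not differ between genotypes beyond the spread of the libraries. Reads from −1 made up 89.5%, 87.3%, 89.3% and 87.7% of 5′ fragments in WT and 89.0%, 87.5%, 89.6% and 91.1% in NSun2-/- skin. The groups overlapped, with means of 88.4% ± 1.10 and 89.3% ± 1.49 (SD, n = 4; exact two-sided permutation p = 0.457). In all other families together the share of −1 starts lay between 0.00744% and 0.0148% per library. The difference to HisGTG was 88.9 ± 1.30 percentage points (mean and SD over 8 libraries), in the same direction in 8 of 8 libraries (exact paired permutation over 256 sign flips, p = 0.0078, the smallest it allows). The families next in order were ValCAC with a mean of 0.0376% and ValAAC with 0.0324%.

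Most of the added nucleotides were read as G, and a smaller part as T. G made up 89.3%, 83.4%, 84.7% and 83.6% of −1 nucleotides of HisGTG 5′ fragments in WT and 87.0%, 90.8%, 86.8% and 82.5% in NSun2-/- skin, ranges that overlapped (exact permutation p = 0.486). T made up between 8.08% and 13.7% in WT and between 6.95% and 14.7% in NSun2-/- skin (exact permutation p = 0.629). A lay between 2.61% and 3.17% in WT and between 2.16% and 2.68% in NSun2-/- skin, where WT replicate 1 fell inside the NSun2-/- range (exact permutation p = 0.0571). C, the nucleotide that 9 of the placed genes encode at −1, was at most 0.110%. In the rare −1 starts of the other families, C was in contrast the most frequent nucleotide, between 66.2% and 81.9%, and G lay between 2.45% and 10.9%.

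**Figure D2:**
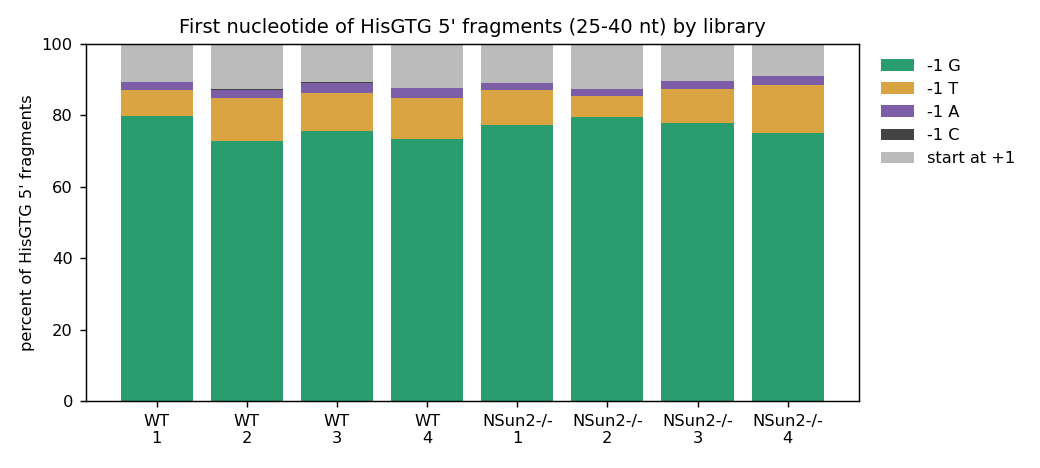
First nucleotide of HisGTG 5′ fragments of 25 to 40 nt, as percent of the fragments of a library (y axis), for each of the 8 libraries. Coloured segments are reads from −1 by nucleotide and grey segments are reads from +1. G at −1 lay between 72.8% and 79.9% of fragments in all libraries.

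As levels in CPM, G, T and A at −1 each had a higher mean in NSun2-/- skin, and the genotypes overlapped for T. G at −1 rose from 15504 ± 2485 CPM in WT to 32882 ± 6320 CPM in NSun2-/- skin (SD, n = 4), a ratio of 2.12, with no overlap (exact permutation p = 0.0286). For T at −1 the values were 1652, 2085, 2052 and 2638 CPM in WT and 3775, 2377, 5138 and 4931 CPM in NSun2-/- skin, where NSun2-/- replicate 2 lay inside the WT range (exact permutation p = 0.0571). A at −1 had means of 528 ± 88.1 CPM (WT) and 906 ± 215 CPM (NSun2-/-; SD, n = 4), without overlap (exact permutation p = 0.0286).

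Full-length mature reads, which run from −1 or +1 to CCA and thus show the uncut tRNA, carried the added nucleotide more often than 5′ fragments did. Their share of −1 starts was 96.0%, 92.5%, 97.0% and 96.8% in WT and 95.1%, 96.9%, 97.9% and 98.2% in NSun2-/- skin. Within a library the share in 5′ fragments was lower by 7.44 ± 1.47 percentage points (mean and SD over 8 libraries), in 8 of 8 libraries (exact paired permutation p = 0.0078). The mature −1 nucleotide was G in 96.0% to 99.3% and T in 0.533% to 3.17%. T at −1 was thus more frequent in 5′ fragments, by 9.80 ± 3.01 percentage points and in 8 of 8 libraries (exact paired permutation p = 0.0078). These paired comparisons were chosen after the values had been seen, and full-length reads were few, between 141 and 638 CPM.

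Most 5′ fragments ended at a few positions, the same for both starts, namely at 30 and 31 in the anticodon stem and at 33 in the anticodon loop. Of fragments from −1, those ending at 33, the base before the anticodon (34 to 36), made up 19.1%, 64.5%, 53.3% and 45.6% in WT and 48.1%, 24.8%, 43.9% and 56.9% in NSun2-/- skin. Ends at 30 averaged 20.2% ± 13.1 (WT) and 24.9% ± 10.5 (NSun2-/-), and ends at 31 averaged 24.6% ± 7.52 and 23.9% ± 4.53 (SD, n = 4). The genotypes overlapped at all 3 ends (exact permutation p between 0.543 and 0.886). WT replicate 1 and NSun2-/- replicate 2 differed from the other libraries of their genotype, with more ends at 30 than at 33.

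Some of the rarer ends were lower in NSun2-/- skin. From −1, ends at 24, 25, 26, 28, 38 and 39 lay lower in every NSun2-/- library than in any WT library, and the other 10 of 16 ends overlapped. From +1 this held for ends at 25, 26, 28 and 39, and the other 11 of 15 overlapped. Adjusted over all 31 ends by Benjamini-Hochberg, none of these passed (adjusted exact permutation p = 0.0886). Fragments from −1 ending at 26, between the D stem and the anticodon stem, made up 0.964%, 2.26%, 1.64% and 1.45% in WT and 0.628%, 0.260%, 0.452% and 0.610% in NSun2-/- skin. Every NSun2-/- library lay below every WT library (exact permutation p = 0.0286), and fragments from +1 ending at 26 showed the same order with 2.29% ± 0.876 and 0.688% ± 0.302 (SD, n = 4; exact permutation p = 0.0286). The nucleotide at −1 also went with the end of the fragment. For every 100 fragments with G at −1, there were 17.5 to 21.5 with T in WT and 13.7 to 22.4 in NSun2-/- skin among those ending at 33, against 6.62 to 10.9 and 5.03 to 12.4 among those ending at 31. The difference of 9.86 ± 1.81 (mean and SD over 8 libraries) had the same sign in 8 of 8 libraries (exact paired permutation p = 0.0078, chosen after the values had been seen).

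**Figure D3:**
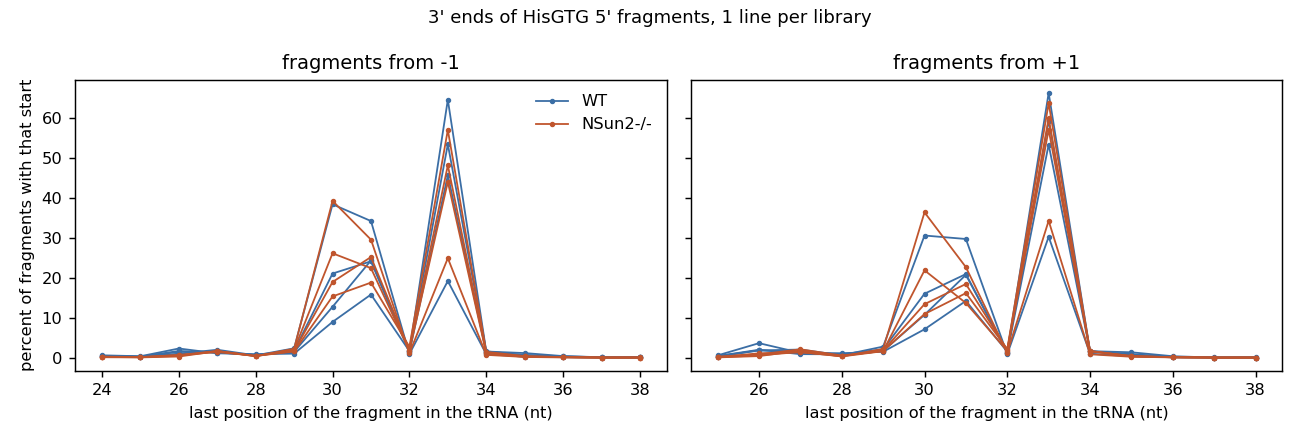
Last position of HisGTG 5′ fragments (x axis, nt from the first encoded base) as percent of fragments with that start (y axis), for fragments from −1 (left) and from +1 (right), with 1 line per library. Ends at 30, 31 and 33 stood out for both starts, and the 2 genotypes overlapped at each of them.

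Reads that began at −2 or further 5′ were rare, and whether their first bases match the encoded leader of precursor tRNA was not tested. They stood at 9.86, 11.1, 9.44 and 17.7 CPM in WT and at 39.3, 27.6, 37.1 and 33.8 CPM in NSun2-/- skin, a ratio of 2.87 with no overlap (exact permutation p = 0.0286). This comparison was chosen after the values had been seen.

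Bases that differ between genes separated a few fragments from the bulk. 5′ fragments with the bases of chr3.trna749-HisGTG stood at 30.6, 48.5, 40.4 and 39.8 CPM in WT and at 26.4, 8.35, 10.8 and 17.1 CPM in NSun2-/- skin, lower in every NSun2-/- library (exact permutation p = 0.0286). Their direction was opposite to that of HisGTG 5′ fragments as a whole, of which they were 0.200% ± 0.0617 (WT) and 0.0386% ± 0.0223 (NSun2-/-; SD, n = 4). When at least 2 of the differing bases were required, the range was 20.6 to 48.2 CPM in WT and 6.56 to 24.4 CPM in NSun2-/- skin, and the genotypes overlapped (exact permutation p = 0.0571). G was the −1 nucleotide of these fragments in 35.1 of 39.8 CPM in WT, although the gene encodes T there. Fragments with the base of chr3.trna293-HisGTG stood at 0.981 to 1.61 CPM in WT and at 2.34 to 8.11 CPM in NSun2-/- skin (exact permutation p = 0.0286). Such low levels of reads that differ from the bulk by 1 base can also hold sequencing errors, which was not tested.

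Mature HisGTG tRNA, counted as CCA-ending reads over at least 90% of the gene, varied widely between libraries and did not pass the test. It stood at 2479, 1666, 727 and 857 CPM in WT and at 975, 240, 560 and 624 CPM in NSun2-/- skin, with overlap (exact permutation p = 0.114). In edgeR's quasi-likelihood test over 17 families the log2 fold change was −0.43 (SE 0.26, adjusted p = 0.320), and on the library total it was −1.26 (adjusted p = 0.0928). Mature reads of all families together were lower in NSun2-/- skin, 79896 ± 15303 against 38975 ± 14079 CPM (SD, n = 4), and HisGTG made up 1.71% ± 0.719 and 1.51% ± 0.455 of them (exact permutation p = 0.657).

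The mature reads shown first began at position 8 or at −1, with −1 and CCA in capitals.
Start 8: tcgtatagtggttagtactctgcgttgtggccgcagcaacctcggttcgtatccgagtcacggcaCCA
Start −1: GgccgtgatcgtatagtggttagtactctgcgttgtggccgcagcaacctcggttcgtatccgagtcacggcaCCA
The read from position 8 ranged from 110 to 1019 CPM in WT and from 44.6 to 191 CPM in NSun2-/- skin. The full-length read from −1 ranged from 125 to 280 CPM in WT and from 75.8 to 216 CPM in NSun2-/- skin. Neither passed edgeR's test over read sequences (adjusted p = 0.357 and 0.886), and the genotypes overlapped for both.

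Both reads carry a mismatch to the gene at conventional position 58, the site at which tRNAs carry 1-methyladenosine, a modification known to cause misreading in cDNA synthesis. Over HisGTG reads with CCA that began between −1 and 41, with common factors of the counts removed, position 58 was read as T in 65.1% ± 2.19, as G in 29.9% ± 0.998 and as the encoded A in 3.18% ± 1.21 of the WT counts (SD, n = 4). In NSun2-/- skin the values were 64.3% ± 2.06, 29.9% ± 1.61 and 3.38% ± 0.224, which overlapped with WT for each nucleotide (exact permutation p between 0.657 and 1.0).

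3′ fragments, read as CCA-ending reads of 25 to 40 nt, were lower in NSun2-/- skin on the scale of all counts but not relative to other families. HisGTG 3′ CCA fragments stood at 2471, 3982, 1866 and 2837 CPM in WT and at 1096, 417, 870 and 1021 CPM in NSun2-/- skin, with no overlap (exact permutation p = 0.0286). The 3′ CCA fragments of all families together also were lower, 30200 ± 12765 against 10065 ± 3696 CPM (SD, n = 4). The HisGTG share of them was 9.48% ± 0.938 (WT) and 8.51% ± 0.404 (NSun2-/-; exact permutation p = 0.114). In the edgeR fit over families, which scales to these reads, the log2 fold change was −0.19 (SE 0.20, adjusted p = 0.541). On the library total the log2 fold change was −1.71 and with lengths of 15 to 60 nt it was 0.33, so that the direction depended on the scaling and length.

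The most abundant 3′ fragments began just after the anticodon loop, at 39 and 41, with CCA in capitals.
Start 39, first read: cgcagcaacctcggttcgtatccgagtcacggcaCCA
Start 39, second read: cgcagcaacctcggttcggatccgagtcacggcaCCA
Start 41: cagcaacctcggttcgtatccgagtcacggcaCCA
The first fragment from 39 stood at 727, 1128, 831 and 1166 CPM in WT and at 319, 151, 259 and 261 CPM in NSun2-/- skin, and the log2 fold change passed edgeR's test over read sequences (−1.61, SE 0.27, adjusted p = 0.0257). The second fragment from 39, which differs from the first at position 58, ranged from 206 to 420 CPM in WT and from 41.6 to 106 CPM in NSun2-/- skin (edgeR, −1.81, SE 0.32, adjusted p = 0.0274). The fragment from 41 overlapped between genotypes (edgeR adjusted p = 0.673). Most CCA-ending HisGTG reads were longer and began between 7 and 21, in the D arm, at 41138, 26605, 7607 and 7142 CPM in WT and 18867, 2741, 10243 and 12926 CPM in NSun2-/- skin, with overlap (exact permutation p = 0.371). Those beginning between 37 and 41 had means of 2397 ± 759 CPM (WT) and 684 ± 226 CPM (NSun2-/-; SD, n = 4), without overlap (exact permutation p = 0.0286).

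**Figure D4:**
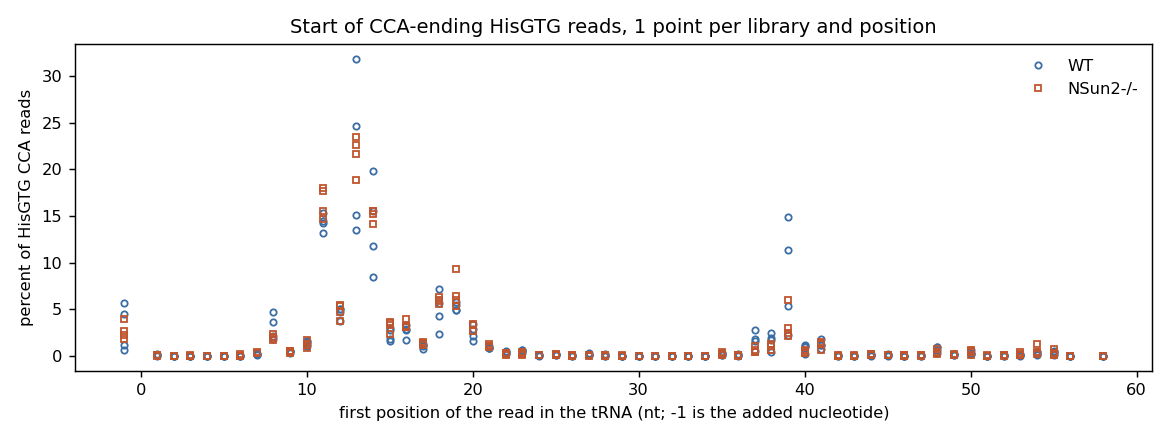
First position of CCA-ending HisGTG reads (x axis, nt, where −1 is the added nucleotide) as percent of these reads in a library (y axis), with 1 point per library. Starts clustered at 11 to 14, at 18 to 20 and at 39, and reads from −1 made up between 0.596% and 5.63%.

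Over single read sequences, 14 of 1031 HisGTG reads were called in edgeR's quasi-likelihood test (Benjamini-Hochberg adjusted p under 0.05), 5 of them higher and 9 lower, where the test called 314 of all 12869 reads (2.44%), 120 higher (0.932%) and 194 lower (1.51%). Without single libraries the count lay between 0 and 13, and only without WT replicate 1 did it exceed 2, so that the calls of single reads were unstable. The calls over all reads then lay between 0 and 210. All 9 lower reads ended in CCA, and the 5 higher ones came from the 5′ end. Among the higher ones were short fragments that ended at 21, in the D arm, shown with −1 in capitals.
T at −1, end 21: Tgccgtgatcgtatagtggtta
G at −1, end 21: Ggccgtgatcgtatagtggtta
The fragment with T stood at 4.96, 3.05, 2.93 and 4.37 CPM in WT and at 26.7, 14.4, 21.6 and 13.8 CPM in NSun2-/- skin (edgeR log2 fold change 2.70, SE 0.36, adjusted p = 0.016). The fragment with G rose by a log2 fold change of 2.19 (SE 0.33, edgeR adjusted p = 0.0234). Of the 5 lower reads with the smallest p, 4 had 0 counts in every NSun2-/- library and between 32 and 179 counts in each WT library, where the counts share factors, so that they may stand for very few reads. These 4 passed the filter on low counts through the WT libraries alone, so that they could be called only as lower.

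In RNA bisulphite sequencing m5C stays a cytosine while other cytosines are converted to uracil. In the main comparison, with 10 or more reads per cytosine, the level of unconverted reads at the NSun2 positions 48 and 49 of HisGTG did not separate the genotypes. Positions follow the tRNA convention, in which the number is 1 above the count from the first base from position 48 on. The mean over sites of positions 48 and 49 was 45.7%, 50.5%, 47.3% and 60.5% unconverted in WT and 57.9%, 64.8%, 6.34% and 51.5% in NSun2-/- skin (exact permutation p = 0.914). These means held 8, 8, 10 and 10 sites in WT and 10, 10, 7 and 10 in NSun2-/- skin. Genes differed in their level, so that the means and their p also depend on which genes a library listed. Cytosines 5′ of the anticodon in the same genes, where no NSun2 site is known, were unconverted at 41.3%, 29.4%, 28% and 42.2% in WT and at 43.0%, 63.8%, 0.971% and 40.5% in NSun2-/- skin. Among them is position 30, with means of 63.7% in WT and 40.0% in NSun2-/- skin (exact permutation p = 0.114), which is described further below. These 5′ cytosines thus stood at 28% or more in 7 of 8 libraries and near 0 in NSun2-/- replicate 3, and without that library the difference at 48 and 49 changed sign, from −5.84 to 7.11 percentage points. Coverage was between 10 and 268 reads per cytosine. With 30 or more reads only chr3.trna291-HisGTG remained, without WT replicate 2 and NSun2-/- replicate 3. There the mean of positions 48 and 49 was 83.5%, 81.9% and 90.2% in WT and 80.1%, 73.7% and 76.8% in NSun2-/- skin. These did not overlap (exact permutation p = 0.1 over 20 assignments, the smallest these allow).

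Tested one cytosine at a time, 0 of 87 HisGTG cytosines passed edgeR's quasi-likelihood test with a difference of at least 10 percentage points, where 320 of 122736 cytosines did (0.261%). At an unadjusted p under 0.05 the count was 16, and limma on the logit scale called 0 of 87, and 155 of all cytosines. Without NSun2-/- replicate 3 edgeR called 3, of which 2 were higher and 1 lower in NSun2-/- skin, and 702 of all cytosines. Without WT replicate 4 it called 1, which was higher, and 273 of all cytosines.

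Because neighbouring cytosines were unconverted too, each cytosine was also set against the other cytosines of the same gene in the same library. Positions 30, 48, 49 and 72 were left out of that reference. Both the measure and its reference were chosen after the values had been seen. By this measure positions 30, 48, 49 and 72 stood above their neighbours in WT and near them in NSun2-/- skin. Being a difference, the measure also falls where the reference cytosines rise, as they did in chr3.trna291-HisGTG and chr3.trna747-HisGTG (values below). Position 49 exceeded the others by 25.3, 15.4, 22.7 and 20.4 percentage points in WT and by 1.52, −3.85, −1.36 and −0.81 in NSun2-/- skin, with no overlap. Position 48 gave 15.4, 7.98, 14.4 and 8.77 percentage points in WT and 6.47, −0.58, 5.18 and 2.24 in NSun2-/- skin. Position 30, in the anticodon stem, gave 46.9, 15.6, 39.6 and 30.4 percentage points in WT and 3.25, −1.42, −1.36 and 0.03 in NSun2-/- skin. Position 72, which pairs with the first base in the acceptor stem, gave 44.9, 22.4, 35.5 and 23.1 percentage points in WT and 5.50, 5.94, 10.6 and 4.13 in NSun2-/- skin. In each of the 4 the genotypes did not overlap (exact permutation p = 0.0286, the smallest possible), and adjusted over the 19 positions compared p was 0.136. The exact permutation p was 0.0571 at position 30 without any 1 of the NSun2-/- libraries, and at position 48 without WT replicate 1, NSun2-/- replicate 2 or NSun2-/- replicate 4. At position 48 the difference of −8.32 shrank to −3.90 and p rose to 0.0857 when all other cytosines of the gene served as reference.

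The gene with the deepest coverage, chr3.trna291-HisGTG, showed this at position 49 with 98.7%, 87.5%, 96.7% and 99.4% unconverted in WT and 79.5%, 70.1% and 79.8% in NSun2-/- replicates 1, 2 and 4. At position 49 of chr3.trna747-HisGTG the values were 83.3%, 94.1% and 96.9% in WT replicates 2, 3 and 4 and 76.1%, 63.0% and 69.2% in NSun2-/- replicates 1, 2 and 4. In both genes every reference cytosine listed in at least 3 libraries per genotype had a higher mean in NSun2-/- skin. The rise was 0.94 (position 9) to 37.78 percentage points (position 41) in chr3.trna291-HisGTG. In chr3.trna747-HisGTG it was 5.69 (position 56) to 22.35 (position 41). Position 49 differed by −19.07 and −21.99 percentage points. The lost excess in these genes thus held both a lower position 49 and higher reference cytosines. For chr4.trna1697-HisGTG position 49 was unconverted in 33 of 34, 35 of 38 and 19 of 20 reads of WT replicates 1, 3 and 4 (97.1%, 92.1% and 95.0%), while position 51 in the same libraries was unconverted in 5.26%, 2.56% and 15.4%. In NSun2-/- replicate 1 position 49 of chr4.trna1697-HisGTG stood at 73.9% (95% Wilson interval 53.5% to 87.5%) and in replicate 4 at 9.09% (1 of 11 reads, 95% Wilson interval 1.62% to 37.7%). Position 51 of this gene stood at 52.0% and 53.3% in NSun2-/- replicates 1 and 4, above its WT values. At chr2.trna586-HisGTG position 49 did not separate the genotypes, with 52.2%, 4.08%, 15.4% and 50.0% unconverted in WT and 50.5%, 71.4%, 0% and 37.3% in NSun2-/- skin. There it exceeded the other cytosines by 16.8, 0.49, 0.49 and 17.5 percentage points in WT and by 7.55, 0.40, −2.03 and 0.67 in NSun2-/- skin, which overlapped. chr4.trna1697-HisGTG was listed in too few libraries for a test, and intervals cover counting error only. The genes named here are among the 8 that are identical over 72 nt, and by the paper's methods Bismark keeps reads with a unique best alignment. How reads within the identical sequence were assigned to 1 gene was not tested. The bisulphite values of a gene thus need not stand for mature HisGTG tRNA.

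**Figure D5:**
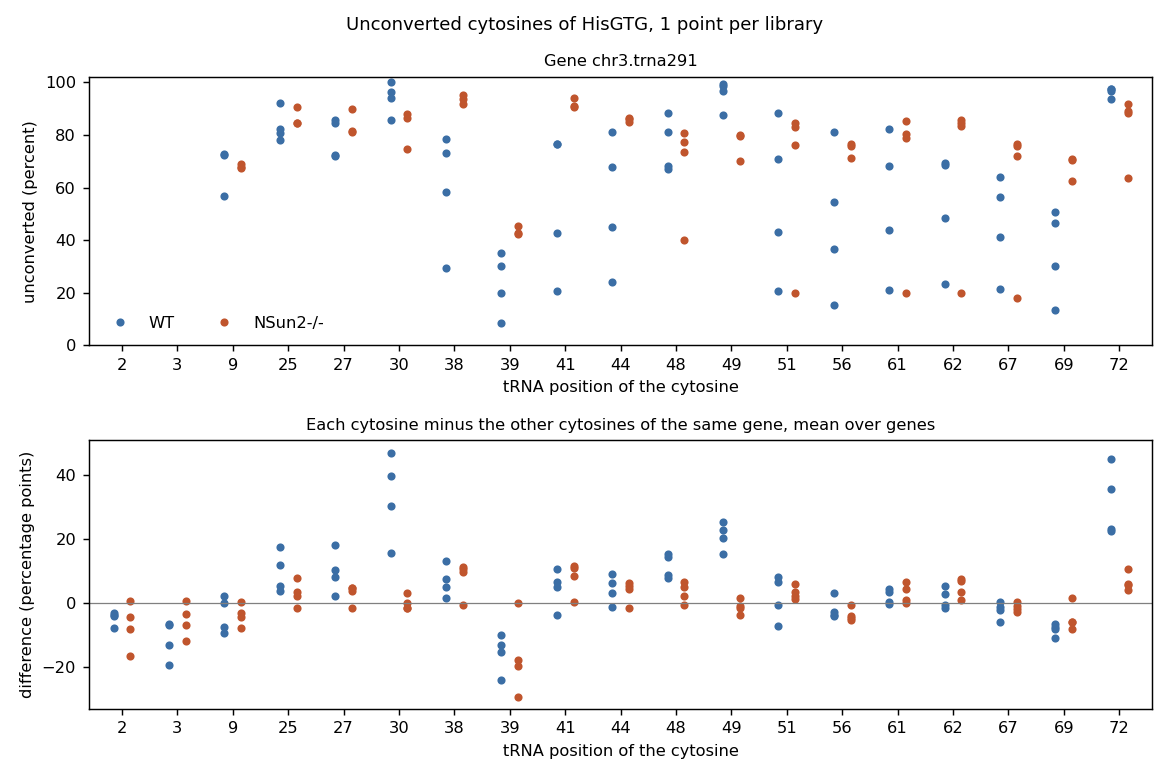
Unconverted cytosines of HisGTG by tRNA position (x axis), with 1 point per library. The upper panel gives percent unconverted in chr3.trna291-HisGTG and the lower panel the difference of each cytosine from the other cytosines of the same gene, in percentage points, as mean over genes. Those other cytosines left out positions 30, 48, 49 and 72. In the lower panel WT points at 30, 49 and 72 lay above all NSun2-/- points.

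Pol III occupied HisGTG genes unevenly. A gene counted as bound if each WT library held 10 or more reads and its scaled reads reached 2-fold those of the WT input. By this rule 4 of 11 HisGTG genes were bound (36.4%), where 212 of 3283 predicted genes were (6.46%). These were the 3 genes on chromosome 2 and chr4.trna1697-HisGTG, which lay 2.95-fold and 2.98-fold above the input. The chromosome 2 genes chr2.trna1431-HisGTG, chr2.trna1432-HisGTG and chr2.trna586-HisGTG ranked 5, 10 and 11 of all predicted genes by mean WT reads scaled to the library total (RPM). They held 82.8% and 74.8% of HisGTG reads in the WT ChIP libraries and 80.2% in the NSun2-/- library, against 28.4% and 25.4% in the WT and NSun2-/- inputs. The most divergent gene, chr3.trna749-HisGTG, had 5 and 6 reads in the WT libraries, 2 in the NSun2-/- library and 11 in the WT input.

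At the bound HisGTG genes the single NSun2-/- library lay above both WT libraries. chr2.trna1431-HisGTG stood at 6185 and 8537 RPM in WT and at 10272 RPM in NSun2-/- skin, and chr2.trna1432-HisGTG at 6239 and 7508 against 9631 RPM. chr2.trna586-HisGTG stood at 6700 and 7001 RPM in WT and at 9484 RPM in NSun2-/- skin, and chr4.trna1697-HisGTG at 1085 and 1109 against 1283 RPM. In RPM, NSun2-/- lay above both WT libraries at 4 of 4 bound HisGTG genes and at 51.9% of all bound genes. Over the input of the same genotype, chr4.trna1697-HisGTG was lower in NSun2-/- skin, at 2.68-fold against 2.95-fold and 2.98-fold in WT. Its inputs held only 5 (WT) and 6 (NSun2-/-) reads. All chromosome 2 genes were higher in NSun2-/- skin over input as well. The summed log2 ratio to the WT mean was 0.47 for HisGTG and 0.22 for all bound genes, while both WT libraries differed by 0.26 at the HisGTG genes. With 1 NSun2-/- library this difference had no replicate check and was not tested.

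Genes that act on histidine tRNA were followed only by the number of their cytosines listed in the bisulphite data, which counts covered sites and is no expression level. Thg1l, which encodes the enzyme that adds −1, had 0 listed cytosines in all 8 libraries, as had Trmt5, Trmt61a and Elac2. Hars had 0, 1, 0 and 0 in WT and 23, 0, 32 and 0 in NSun2-/- skin, and its mitochondrial counterpart Hars2 had 23 and 5 in NSun2-/- replicates 1 and 3 and 0 elsewhere. Those replicates also listed the most cytosines in all, 665049 and 658169, against 110324 to 385574 in the others. Rnh1, which encodes the inhibitor that binds angiogenin, was listed in all libraries with 58 to 120 cytosines in WT and 45 to 206 in NSun2-/- skin, while Ang had 4 in NSun2-/- replicate 3 and 0 elsewhere. Trmt6, Trnt1 and Ssb were listed in some libraries, with at most 19, 13 and 8 cytosines.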

How the data were processed

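RNA bisulphite sequencing, tRNA-seq and Pol III ChIP-seq of mouse back skin were used as deposited. The members and lists were chosen with earlier results of these data known. For tRNA-seq, the authors aligned reads with Bowtie to mm9, trimmed CCA ends of unaligned reads, realigned them and deposited unscaled counts per tRNA gene and read sequence. For Pol III, the authors deposited unscaled counts per predicted tRNA gene. By the paper's methods, reads that match several genes were shared out in both by the fraction of uniquely matching reads. Whether the deposited tRNA-seq counts, which share factors, follow this was not tested. For bisulphite sequencing, the authors aligned with Bismark (0.7.6 in the submitters' processing notes) and deposited the percent of unconverted reads and both counts for cytosines with at least 10 reads. The positions fall on cytosines of mm9.

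Reads were placed on the tRNA genes with at most 4 mismatches, the counts of a read were added over its genes, and 25 to 40 nt from −1 or +1 was taken as a 5′ fragment. Between 0.182% and 0.218% of a library's counts could not be placed. edgeR 4.0.16 tested families, read sequences and cytosines covered by 10 or more reads in 3 libraries per genotype (quasi-likelihood, TMM, filterByExpr, Benjamini-Hochberg) in R 4.3.3, with DESeq2 1.42.0 and limma 3.58.1 as alternatives. Single values had exact permutation tests, two-sided, with 70 assignments (smallest p 0.0286). Python 3.11.15, pandas 2.3.3, numpy 2.4.6 and pysam 0.24.0 were used. On data simulated with the fitted spread, edgeR recovered 0% of log2 fold changes of 1 or 2 in read sequences. In 5′ fragments by family it recovered 47.8% and 98.1%, in mature tRNA 21.4% and 57.8%, and in 3′ CCA fragments 28.6% and 82.6%. Of simulated losses at cytosines it recovered 51.5%. Features that did not pass may thus still differ between genotypes. Pol III ratios used a pseudocount of 1. The tRNA-seq depth was 17352126 to 36749727 counts per library and the Pol III depth 14483 to 95112 counts. Because counts of a read share factors, no binomial intervals are given for tRNA-seq. Named reads were the most abundant of each class and the called reads with the smallest p, up to 5 in each direction. Libraries were grouped by their labels, and the study's methods call the replicates independent biological ones.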

Additional observations from a re-analysis of the deposited data

Results flagged for a closer look

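In 4 of 42 groups of 4 libraries examined, 1 library lay far from the other 3, and chance alone gives about 1 in 20 such groups. HisGTG 5′ fragments from −1 in NSun2-/- replicate 3 stood at 48469 CPM, where the other NSun2-/- libraries lay between 33545 and 35251 CPM. In the same library HisGTG 5′ fragments took 5.41% of all tRNA-seq counts, against 3.68% to 3.96%, and fragments with the base of chr3.trna293-HisGTG stood at 8.11 CPM, against 2.34 to 3.32 CPM. These 3 values share their reads. C made up 0.0964% of −1 nucleotides in NSun2-/- replicate 4, against 0.0658% to 0.0699% in the other NSun2-/- libraries.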

How the results depend on the processing

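HisGTG 5′ fragments from −1 kept their direction and stayed past the threshold under all 9 planned and added alternatives and without each library (log2 fold change 0.87 to 1.19, 0.92 to 1.19 without single libraries). Those from +1 did so except with a replicate block (0.90, edgeR adjusted p = 0.0559), with 0.83 to 1.07 without single libraries. The share of all HisGTG 5′ fragments in all counts lay 1.80 to 2.38 percentage points higher without single libraries, and 2.19 with the replicate block by paired permutation, where 4 pairs cannot give p under 0.125. It was 0.537 percentage points higher with the common factor removed, against 2.19. Replicate numbers were not treated as a pairing in the main tests. Correlations of same-numbered libraries were 0.01, −0.19, 0.04 and −0.08 in tRNA-seq and −0.08, −0.13, 0.27 and −0.05 in the bisulphite data. These values cannot show whether libraries were collected or prepared in pairs. The shares of −1 starts and of G at −1 did not change side, with 0.268 to 1.47 and 0.229 to 3.00 percentage points without single libraries, nor did the difference to other families (88.5 to 89.1). Mature tRNA lay between −0.67 and −0.19 without single libraries and at −1.26 on the library total (edgeR adjusted p = 0.0928), and passed under none of the alternatives run. For 3′ CCA fragments the log2 fold change was −1.71 on the library total, past the threshold, and 0.33 with 15 to 60 nt, and −0.24 to −0.07 without single libraries. Why length and scaling moved it was not tested.

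Positions 48 and 49 ranged from −12.4 to 7.11 percentage points without single libraries and reversed to 7.11 without NSun2-/- replicate 3. Their difference was −8.36 with 30 or more reads, in chr3.trna291-HisGTG alone and without overlap of the genotypes. It was −10.7 when corrected for the 5′ cytosines, which include position 30. Called HisGTG reads numbered 9 of 272 called in all on the library total, 127 of 1602 with DESeq2, 0 of 32 without a filter, 0 of 0 with the replicate block, and 0 to 13 without single libraries. Called cytosines numbered 0 to 3 without single libraries. Without the comparison with input, 9 genes counted as bound, and 3 with a pseudocount of 5 or with 4-fold over input. Of the measures chosen after the values were seen, position 30 ranged from −38.8 to −28.4, position 48 from −9.55 to −7.02, position 49 from −23.9 to −20.6 and position 72 from −27.9 to −20.4 without single libraries. Position 48 gave −3.90 with all other cytosines as reference. Removing the common factor from the counts, fragments ending at 32 or later and the other cytosines as reference were also chosen after seeing the data.

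Bisulphite coverage started at 10 reads, and several genes were listed in few libraries.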
